A study of Rattus norvegicus with 6 samples.

Results

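The cell cycle and mitosis genes described here are 50 rat genes, chosen as a named list that spans the cycle: G1 cyclins and their kinases, replication genes, regulators of mitotic entry, genes of the spindle and of mitotic exit, and 2 proteins of dividing chromosomes. A gene counted as measured when a probe carried a RefSeq accession of that gene. A probe was found for 37 of the 50 genes, out of 13876 genes named in this way on the arrays. Kif2c had 2 probes and the other genes 1 each. No probe was matched for Ccnd3, Cdk6, Mcm3, Mcm4, Mcm5, Cdc25c, Birc5, Bub1b, Cenpe, Cenpf, Kif11, Top2a and Mki67, which were not analysed here. The chromosome proteins Top2a and Mki67, commonly used as proliferation markers, are therefore outside this account.

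The arrays profiled heart muscle of 6 male Wistar rats. In the border-zone group the left anterior descending coronary artery (LAD) of 3 rats was ligated, and the border zone of the infarct was taken at 6 h after it had been located with a double stain (arrays M17, M24 and M25). The sham group was 3 sham-operated rats whose control-zone myocardium was taken at the same time (arrays C4, C5 and C6). The labels name no other treatment, and the rats' age is not given in the sources used here. Both groups are whole tissue, so fewer cycling cells and less RNA per cycling cell cannot be told apart.

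Cells divide through an ordered programme. In G1, cyclins D and E with their kinases release E2F factors, which turn on genes of DNA replication. Later, cyclins A and B with Cdk1 drive entry into mitosis, and the anaphase-promoting complex with Cdc20 ends it by destroying cyclin B and securin. Adult cardiomyocytes rarely divide, whereas fibroblasts, endothelial cells and leukocytes of the heart can. Many genes of G2 and mitosis share promoter elements: CCAAT boxes, which bind the factor NF-Y, and the CHR (cell cycle genes homology region), a short element bound by the DREAM and MYB-MuvB complexes.

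The promoters of 6 members are shown here because these genes gave the largest falls among members with a promoter window. CCAAT boxes can be seen in all 6, and the CHR core or its variant, given below, in all but Ttk. Each sequence is the 250 bases before the annotated transcript start, 5′ to 3′ on the gene's strand, from RefSeq on the GRCr8 assembly. Capitals mark the CCAAT box, the usual core of the CHR, which reads TTTGAA, and its variant TTTAAA, on either strand, so the reverse complement of each is also in capitals.
Kif20a (chr18:26504172-26504421, plus strand): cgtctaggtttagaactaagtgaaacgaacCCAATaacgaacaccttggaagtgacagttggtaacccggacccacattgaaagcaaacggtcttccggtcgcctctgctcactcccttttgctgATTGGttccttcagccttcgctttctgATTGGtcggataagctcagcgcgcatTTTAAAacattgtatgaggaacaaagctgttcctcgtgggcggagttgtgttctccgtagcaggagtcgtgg
Ttk (chr8:93634389-93634638, plus strand): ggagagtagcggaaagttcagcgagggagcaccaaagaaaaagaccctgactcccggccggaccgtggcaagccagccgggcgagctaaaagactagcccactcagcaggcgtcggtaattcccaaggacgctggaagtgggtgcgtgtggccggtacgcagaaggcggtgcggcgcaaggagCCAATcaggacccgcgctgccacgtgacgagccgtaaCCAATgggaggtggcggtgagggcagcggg
Prc1 (chr1:143659231-143659480, plus strand): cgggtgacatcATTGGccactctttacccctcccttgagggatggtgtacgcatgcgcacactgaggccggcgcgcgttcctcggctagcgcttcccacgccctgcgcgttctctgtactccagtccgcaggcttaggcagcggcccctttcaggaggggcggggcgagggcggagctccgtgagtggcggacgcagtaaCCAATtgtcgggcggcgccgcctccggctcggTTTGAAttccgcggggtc
Ccnb2 (chr8:79981659-79981908, minus strand): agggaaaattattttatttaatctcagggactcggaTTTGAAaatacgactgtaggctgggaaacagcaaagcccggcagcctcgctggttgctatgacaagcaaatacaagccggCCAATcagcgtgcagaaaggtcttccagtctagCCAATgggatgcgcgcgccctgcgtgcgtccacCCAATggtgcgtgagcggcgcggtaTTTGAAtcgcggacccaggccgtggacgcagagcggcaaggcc
Cdc20 (chr5:137255800-137256049, minus strand): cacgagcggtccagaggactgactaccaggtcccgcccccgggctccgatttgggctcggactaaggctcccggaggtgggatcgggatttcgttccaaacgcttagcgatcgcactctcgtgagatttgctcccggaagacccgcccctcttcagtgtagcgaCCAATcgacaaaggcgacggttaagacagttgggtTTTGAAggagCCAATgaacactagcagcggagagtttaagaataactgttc
Ccnb1 (chr2:33655226-33655475, minus strand): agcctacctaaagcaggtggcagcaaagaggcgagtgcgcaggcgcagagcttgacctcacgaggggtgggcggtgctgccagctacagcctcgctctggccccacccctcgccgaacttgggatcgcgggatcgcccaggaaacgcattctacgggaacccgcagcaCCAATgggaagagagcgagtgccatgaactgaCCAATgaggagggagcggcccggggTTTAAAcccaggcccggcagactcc
Each of the 6 held at least 2 CCAAT boxes. In Ccnb2 they lay 134, 101 and 68 bases before the start, with TTTGAA at 43 bases. In Cdc20 they lay 86 and 41 bases before the start and TTTGAA lay at 51. Prc1 had TTTGAA 18 bases before the start, and Ccnb1 had TTTAAA at 25. In Ttk the only TTTGAA lay just after the start, outside the printed bases.

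Levels are log2 processed signals relative to the 75th percentile of their own array, listed for M17, M24 and M25 and for C4, C5 and C6 in that order. They show how one probe differed between arrays, and the levels of different probes are not comparable. Differences are log2 fold changes of border zone minus sham with the standard error of the limma fit (n = 3 arrays per group), and p-values are Benjamini-Hochberg adjusted over all 17930 probes tested, with a threshold of 0.05. "Fell" and "rose" are used of genes past that threshold. The labels give 1 array per animal, and p-values measure the spread between these arrays.

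Some arrays stood apart. Signal counted as well above background for 74.3% to 78.3% of probes on the border-zone arrays, against 73.7% for C4 and only 51.0% and 52.4% for C5 and C6. Per the file headers C4 was scanned together with the border zone, and C5 and C6 in a scan each, so that a fit with scan as a block equals a comparison with C4 alone and holds no spread between sham animals. M25 differed from the mean signal of M17 and M24 by a median of 0.0405 over the 36 members tested (log2, absolute), whereas M17 differed by 0.259 and M24 by 0.246 from the mean of the other border-zone arrays. The same measure was 0.302 for C4, 0.114 for C5 and 0.296 for C6. Of 572 probes over 2-fold apart between M17 and M24, M25 lay between them for 558. The labels call M25 a separate rat, and whether it shares material with M17 and M24 was not tested. Main results are therefore given with and without it.

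Genes that drive cell division were mostly lower in the infarct border zone, and the 3 largest falls were in genes of the mitotic spindle. Of 36 members tested, 19 fell, none rose and 17 did not pass. Over all probes 10.3% were lower and 9.01% were higher at the same threshold. The median difference of the 36 members was -0.77, beside -0.03 over all probes tested, and 34 of 36 were negative, the exceptions being Pcna and Aurkb. In 24 of the 36 every border-zone array lay below every sham array, a pattern found in 22.8% of all probes, and in none did every border-zone array lie above. Against C4 alone the members' median was -0.95 and 16 of 36 were lower, beside 7.50% of all probes, and 13 of these 16 were among the 19. Without M25, 5 of 36 passed (Ccnd1, E2f1, Cdc6, Cdk1 and Cdc20), beside 1.24% of all probes, while all 19 stayed negative. All 36 had been well above background on the 3 border-zone arrays, and 29 of them on all 6.

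**Figure D1:**
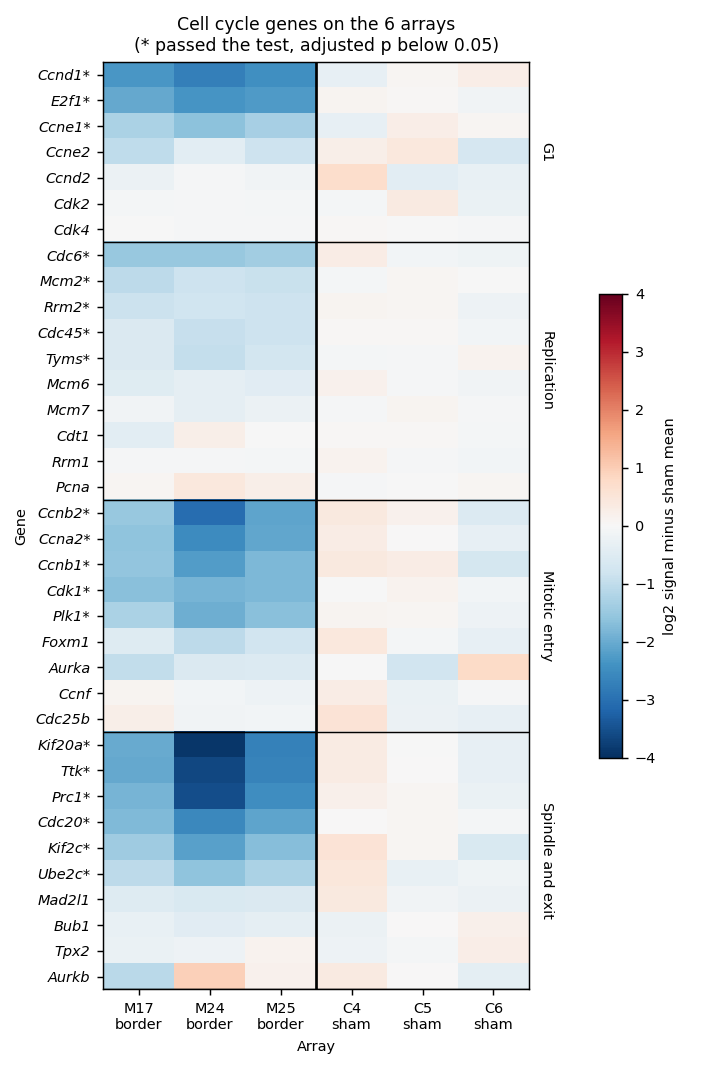
Heat map of the 36 tested members on each array, as log2 signal minus the sham mean of the same probe (colour scale, blue lower and red higher), with border-zone arrays left of sham arrays, genes grouped by role and an asterisk on genes that passed. Among the 19 members that fell, the median was -1.51 on M17, -2.17 on M24 and -1.79 on M25, against 0.12 on C4, 0.07 on C5 and -0.18 on C6.

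The map of the members by array shows the falls in every border-zone array, deepest in the mitotic genes on M24. M24 was the lowest array for 16 of the 19 genes that fell, and M25 lay between M17 and M24 for 18 of the 19. Among the sham arrays C4 was the highest for 13 of them and C6 the lowest for 14.

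In G1, 3 of 7 genes fell. Cyclin D1 (Ccnd1), which couples growth-factor signals to the start of the cycle, had levels of -1.22, -1.61 and -1.35 in the border zone, against 0.77, 1.17 and 1.37 in sham. The groups were far apart, with a 5.66-fold lower mean in the border zone (-2.50 ± 0.20, limma adjusted p = 0.00209, -2.17 against C4). E2f1, the transcription factor that activates replication genes, had -3.26, -3.57 and -3.47 in the border zone, against -1.11, -1.17 and -1.37 in sham. It was 4.65-fold lower (-2.22 ± 0.14, adjusted p = 0.00124), and both groups were tight. Cyclin E1 (Ccne1), the partner of Cdk2 at the start of S phase, had -3.52, -3.89 and -3.57 in the border zone, against -2.57, -1.98 and -2.17 in sham, and fell 2.68-fold (-1.42 ± 0.20, adjusted p = 0.00889).

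The other 4 G1 genes did not pass. Cyclin E2 (Ccne2) had -4.33, -3.73 and -4.13 in the border zone, against -3.06, -2.88 and -3.98 in sham, where 2 of the 3 arrays were well above background (-0.76 ± 0.33, adjusted p = 0.159). The groups overlapped on C6. The kinases of the G1 cyclins moved little: Cdk4 had 2.27, 2.24 and 2.23 in the border zone, against 2.33, 2.28 and 2.24 in sham (-0.04 ± 0.10, adjusted p = 0.81). Cdk2 had -2.76, -2.75 and -2.78 in the border zone, against -2.77, -2.35 and -2.97 in sham (-0.07 ± 0.18). For both kinases the groups overlapped and the sign turned when arrays were scaled to their medians, to 0.15 for Cdk4 and 0.12 for Cdk2. Cyclin D2 (Ccnd2) had 0.63, 0.82 and 0.72 in the border zone, against 1.58, 0.45 and 0.56 in sham (-0.14 ± 0.31), so C4 lay above and the other sham arrays below the border zone. It was called lower against C4 alone (-0.85, adjusted p = 0.0287).

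Among replication genes 5 of 10 fell. Cdc6, which loads the replicative helicase at origins, had -4.82, -4.81 and -4.69 in the border zone, against -3.01, -3.43 and -3.49 in sham. It was 2.76-fold lower (-1.46 ± 0.16, adjusted p = 0.00459) with no overlap. Mcm2, a subunit of that helicase, had -1.03, -0.80 and -0.88 in the border zone, against -0.05, 0.10 and 0.01 in sham, and fell 1.90-fold (-0.92 ± 0.12, adjusted p = 0.00691). Rrm2, the regulated subunit of ribonucleotide reductase, which makes deoxynucleotides, had -0.89, -0.81 and -0.85 in the border zone, against 0.09, 0.06 and -0.22 in sham (-0.83 ± 0.13, adjusted p = 0.0116). Cdc45, which joins the helicase when it starts to unwind DNA, had -2.18, -2.53 and -2.45 in the border zone, against -1.56, -1.57 and -1.71 in sham (-0.77 ± 0.13, adjusted p = 0.0165). Thymidylate synthase (Tyms) had -2.46, -2.81 and -2.59 in the border zone, against -1.97, -1.91 and -1.74 in sham (-0.75 ± 0.14, adjusted p = 0.0201). In each of these 5 genes the groups were separate. When arrays were scaled to their medians, Rrm2 (-0.64, adjusted p = 0.0783), Cdc45 (-0.58, adjusted p = 0.0833) and Tyms (-0.56, adjusted p = 0.0525) did not pass.

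The other replication members did not pass. Mcm6 had -1.05, -0.92 and -1.02 in the border zone, against -0.37, -0.62 and -0.69 in sham (-0.44 ± 0.13, adjusted p = 0.0634). Mcm7 had 0.55, 0.34 and 0.46 in the border zone, against 0.62, 0.79 and 0.63 in sham (-0.23 ± 0.12, adjusted p = 0.21). In both helicase subunits every border-zone array lay below every sham array, by a small margin. Pcna, the sliding clamp of DNA polymerases, which also serves DNA repair, had 3.31, 3.66 and 3.46 in the border zone, against 3.19, 3.23 and 3.31 in sham (0.23 ± 0.13, adjusted p = 0.25). Its groups met at M17 and C6. Cdt1, the partner of Cdc6 in helicase loading, differed by -0.07 ± 0.19, and Rrm1, the large subunit of ribonucleotide reductase, by -0.06 ± 0.11. Both turned positive under median scaling.

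Of the genes of mitotic entry, 5 of 9 fell, with a median difference of -1.63 over the 9. Cyclin B2 (Ccnb2), a partner of Cdk1, had -1.27, -2.80 and -1.87 in the border zone, against 0.64, 0.41 and -0.32 in sham. It was 4.66-fold lower (-2.22 ± 0.45, adjusted p = 0.0241), and the border-zone arrays spread over more than the sham arrays. Cyclin A2 (Ccna2), which acts in S phase and G2, had -2.79, -3.70 and -3.26 in the border zone, against -0.86, -1.16 and -1.49 in sham, and fell 4.21-fold (-2.07 ± 0.28, adjusted p = 0.00804). Cyclin B1 (Ccnb1), the main mitotic cyclin, had -4.74, -5.39 and -4.95 in the border zone, against -2.75, -2.85 and -3.87 in sham (-1.87 ± 0.35, adjusted p = 0.0195), and 2 of 3 sham arrays were well above background. Cdk1, the kinase that starts mitosis, had -0.97, -1.16 and -1.08 in the border zone, against 0.71, 0.84 and 0.59 in sham. It fell 3.44-fold with little spread in either group (-1.78 ± 0.12, adjusted p = 0.00152). Plk1, a kinase that activates Cdk1 and builds the spindle poles, had -2.06, -2.74 and -2.47 in the border zone, against -0.68, -0.71 and -0.99 in sham (-1.63 ± 0.21, adjusted p = 0.0067).

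The 4 other entry genes did not pass. Foxm1, the factor that turns on G2 and mitotic genes, had -2.72, -3.26 and -2.98 in the border zone, against -1.80, -2.30 and -2.55 in sham (-0.77 ± 0.24, adjusted p = 0.0755), with no overlap between the groups. Aurora kinase A (Aurka), which matures the spindle poles, had -6.44, -6.05 and -6.01 in the border zone, against -5.49, -6.22 and -4.68 in sham (-0.70 ± 0.39, adjusted p = 0.25), and 1 of 3 sham arrays was well above background. Its groups overlapped on C5, and its sign turned in some settings (up to 0.19). Cyclin F (Ccnf), a substrate receptor for protein destruction, had -2.88, -3.08 and -3.20 in the border zone, against -2.67, -3.25 and -3.03 in sham (-0.07 ± 0.18). The Cdk1-activating phosphatase Cdc25b differed by -0.0026 ± 0.26, with 1 of 3 sham arrays well above background. Ccnf and Cdc25b changed sign between settings, between -0.48 and 0.12 for Ccnf and between -0.64 and 0.32 for Cdc25b.

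Among genes of the spindle, checkpoint and mitotic exit, 6 of 10 fell, with a median difference of -1.54 over the 10. Kif20a, a kinesin that moves to the central spindle and is needed for cytokinesis, had -2.34, -4.20 and -3.03 in the border zone, against 0.00, -0.33 and -0.64 in sham. This was the lowest fitted value of any member, 7.31-fold (-2.87 ± 0.48, adjusted p = 0.0149, -3.19 against C4). Ttk, the Mps1 kinase of the spindle checkpoint, had -3.41, -5.01 and -4.04 in the border zone, against -1.04, -1.37 and -1.71 in sham, and was 6.88-fold lower (-2.78 ± 0.43, adjusted p = 0.0114). Prc1, which bundles the microtubules of the central spindle, had -1.82, -3.51 and -2.46 in the border zone, against 0.22, 0.10 and -0.24 in sham (-2.62 ± 0.43, adjusted p = 0.0139). All 3 genes were lowest on M24 and nearest to sham on M17, where they still lay below every sham array.

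The genes of mitotic exit fell as well. Cdc20, the activator of the anaphase-promoting complex, had -1.38, -2.18 and -1.70 in the border zone, against 0.42, 0.47 and 0.31 in sham. It was 4.45-fold lower (-2.15 ± 0.22, adjusted p = 0.00386), and the sham arrays were close together. Ube2c, the ubiquitin-conjugating enzyme of that complex, had -3.77, -4.32 and -3.98 in the border zone, against -2.27, -3.01 and -2.87 in sham (-1.31 ± 0.25, adjusted p = 0.0205). Kif2c, a kinesin that dismantles microtubules at kinetochores, had -4.45, -5.19 and -4.72 in the border zone, against -2.48, -2.93 and -3.64 in sham, where 2 of 3 arrays were well above background (-1.77 ± 0.34, adjusted p = 0.022). Its second probe gave -1.78 ± 0.35 (adjusted p = 0.023). Both probes placed the border zone below sham. Under quantile normalization Kif2c (-1.53, adjusted p = 0.0649) and Ccnb1 (-1.60, adjusted p = 0.0698) did not pass.

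Of the remaining genes in this group, 4 did not pass and 1 was not tested. The checkpoint protein Mad2l1 had -3.65, -3.75 and -3.72 in the border zone, against -2.75, -3.27 and -3.39 in sham (-0.57 ± 0.19, adjusted p = 0.0855). The checkpoint kinase Bub1 had -0.97, -1.14 and -1.06 in the border zone, against -0.91, -0.66 and -0.48 in sham (-0.37 ± 0.14, adjusted p = 0.122). Neither gene overlapped between groups. Aurora kinase B (Aurkb), which corrects wrong kinetochore attachments, had -4.48, -2.46 and -3.21 in the border zone, against -3.04, -3.38 and -3.78 in sham (0.01 ± 0.52), so its border-zone arrays enclosed the sham arrays. The spindle assembly factor Tpx2 differed by -0.12 ± 0.18, with 1 of 3 sham arrays well above background, and ranged from -0.67 to 1.07 between settings. Nusap1, a microtubule-binding protein, had -8.82, -8.93 and -9.02 in the border zone, against -8.61, -3.39 and -5.95 in sham, and was not well above background on all arrays of either group.

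**Figure D2:**
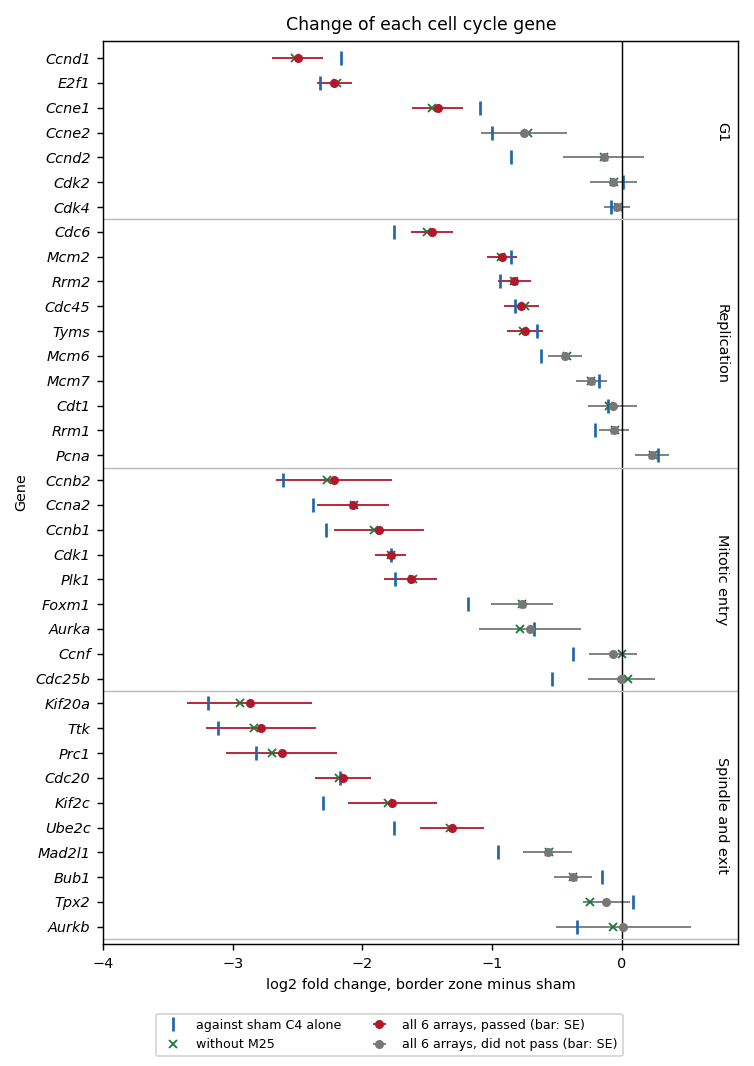
Log2 fold change of each tested member, border zone minus sham, as a point with its standard error (n = 3 arrays per group, red where the gene passed and grey where it did not), beside the value against sham C4 alone (blue tick) and without M25 (green cross). The 19 members that fell lie between -2.87 (Kif20a) and -0.75 (Tyms), and Pcna at 0.23 is the highest member.

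The plot of fold changes by member sets the roles side by side. The median difference was -0.76 over the 7 G1 genes, -0.59 over the 10 replication genes, -1.63 over the 9 entry genes and -1.54 over the 10 spindle and exit genes. These medians describe the measured members, and the difference between roles was not tested. Of the 19, Tyms and Cdc45 did not pass against C4 alone, and neither did Ccnb2, Kif20a, Ttk and Prc1, the 4 with the widest spread between border-zone arrays. Without M25 the differences of Ccnb2, Kif20a, Ttk and Prc1 were -2.27, -2.95, -2.84 and -2.69, with adjusted p from 0.0635 for Ttk to 0.101 for Ccnb2.

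Other genes of mitosis, a list of 40 chosen in the same way as the members, had 24 tested, of which 15 fell and 1 rose, with a median of -1.49. Over all probes 10.3% were lower and 9.01% higher. Cep55, which directs the final cut between daughter cells, had -3.11, -4.20 and -3.48 in the border zone, against -0.78, -0.95 and -1.48 in sham (-2.52 ± 0.33, adjusted p = 0.00737). Cdca3, which triggers destruction of the mitotic inhibitor Wee1, had -3.38, -5.05 and -3.91 in the border zone, against -1.45, -1.55 and -1.83 in sham (-2.50 ± 0.43, adjusted p = 0.0157). The kinetochore subunit Spc25 had -4.64, -5.42 and -4.77 in the border zone, against -2.28, -2.51 and -2.59 in sham (-2.48 ± 0.23, adjusted p = 0.00317). All 3 were lowest on M24. Securin (Pttg1), which blocks the separation of sister chromatids until anaphase, had -2.42, -3.73 and -2.93 in the border zone, against -0.56, -0.70 and -1.05 in sham (-2.26 ± 0.35, adjusted p = 0.0117). Against C4 alone the median of the 24 was -1.68, and Cdca3 (-2.66) and Pttg1 (-2.47) did not pass. Without M25, 6 of the 24 passed, all lower, beside 1.24% of all probes.

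One gene of this list moved the other way. Cenpa, the histone H3 variant that marks centromeres, had -1.34, -0.74 and -1.01 in the border zone, against -1.94, -2.48 and -2.98 in sham, and rose (1.44 ± 0.30, adjusted p = 0.0274). Against C4 alone it was 0.91 (adjusted p = 0.0947), and without M25 it was 1.42 (adjusted p = 0.119). Its groups did not overlap, and neither comparison with fewer arrays passed.

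Other replication genes gave 26 tested, 5 that fell and 1 that rose, with a median of -0.25 (-0.12 against C4 alone). Over all probes 10.3% were lower and 9.01% higher. Gins1, part of the active helicase, had -2.93, -2.84 and -2.93 in the border zone, against -1.70, -1.69 and -1.66 in sham (-1.21 ± 0.10, adjusted p = 0.00225). The catalytic subunit of the leading-strand polymerase, Pole, had -2.41, -2.55 and -2.51 in the border zone, against -1.54, -1.37 and -1.35 in sham (-1.07 ± 0.11, adjusted p = 0.00446). The histone chaperone subunit Chaf1b had -3.43, -3.34 and -3.46 in the border zone, against -2.19, -2.66 and -2.51 in sham (-0.96 ± 0.15, adjusted p = 0.0125). The levels within each group were tight in all 3. Cdc7, the kinase that fires origins, fell by 0.92 ± 0.16 and Gins3 by 0.66 ± 0.11. Orc4, a subunit of the origin recognition complex, rose by 0.65 ± 0.12 (adjusted p = 0.0178). Without M25, 2 of these 26 genes passed, both lower, beside 1.24% of all probes.

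Of 15 tested genes that restrain the cycle, 2 rose, 3 fell and 10 did not pass, with a median of -0.09. Over all probes 9.01% were higher and 10.3% lower, and whether this list differs from all probes was not tested. The antiproliferative factor Btg2 had 5.01, 4.88 and 4.89 in the border zone, against 3.70, 3.37 and 3.28 in sham (1.47 ± 0.15, adjusted p = 0.00376). Cdkn1a (p21), an inhibitor of Cdk2, had 4.68, 4.63 and 4.62 in the border zone, against 3.34, 3.57 and 3.80 in sham (1.07 ± 0.15, adjusted p = 0.00846). Both were tight in the border zone. The Cdk4 inhibitor Cdkn2c (p18) had -1.79, -1.56 and -1.65 in the border zone, against 0.06, -0.22 and -0.68 in sham (-1.39 ± 0.21, adjusted p = 0.011). The pocket protein Rbl2 (p130), part of the DREAM repressor, fell by 0.66 ± 0.12, and Fzr1 (Cdh1), an activator of the anaphase-promoting complex in G1, fell by 0.64 ± 0.14. The falls of Rbl2 and Fzr1 did not pass under median scaling (-0.47 and -0.45). Without M25, Btg2 alone of the 15 passed, beside 1.59% of all probes higher and 1.24% lower.

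In a list of growth-factor and MYC network genes, 8 of 12 rose and 1 fell, with a median of 0.94. Over all probes 9.01% were higher and 10.3% lower. The list also holds the MYC antagonists Mxd1, which rose (1.74 ± 0.22), and Mnt, which did not pass (0.14 ± 0.16). Against C4 alone 5 of 12 rose, beside 8.43% of all probes, and Odc1 (adjusted p = 0.0533), Ccnl1 (adjusted p = 0.0586) and Fos did not pass. Myc, a factor that drives cell growth and entry into the cycle, had 1.76, 1.79 and 1.81 in the border zone, against -2.50, -2.72 and -2.55 in sham, with gaps far above the spread (4.37 ± 0.11, adjusted p = 0.000371). Fosl1, an AP-1 subunit induced by growth factors, had -0.90, -0.74 and -0.84 in the border zone, against -8.69, -6.15 and -5.07 in sham, where no array was well above background. Its rise was at least 20.1-fold, taking each dim array at the lowest signal called above background on it (adjusted p = 0.0114). Fos, an early AP-1 subunit, had -0.57, 0.91 and 0.38 in the border zone, against -1.67, -1.95 and -2.81 in sham (2.39 ± 0.46, adjusted p = 0.0221), and did not pass against C4 alone (1.91, adjusted p = 0.115). Mycn, the MYC paralogue of embryonic growth, had -3.62, -3.13 and -3.44 in the border zone, against -0.28, -0.68 and -1.25 in sham (-2.66 ± 0.28, adjusted p = 0.00417). Ccnd1 and E2f1 thus fell on the same arrays on which Myc and Fosl1 rose. Without M25, 2 of the 12 rose, beside 1.59% of all probes, and 1 fell.

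**Figure D3:**
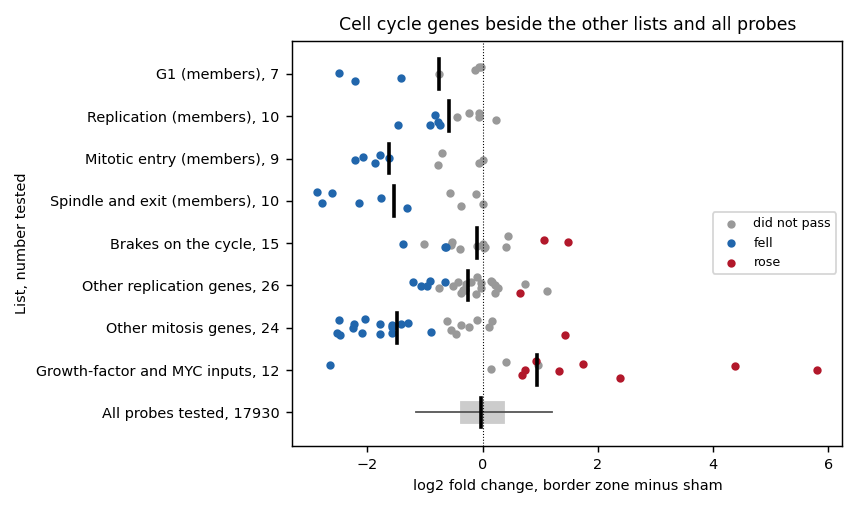
Log2 fold change, border zone minus sham, of each tested gene (point, coloured by its call) in the 4 role groups of members and the 4 lists of other cycle genes, with a bar at each median, and for all 17930 probes a box over the 25th to 75th percentile with a line over the 5th to 95th. In the mitotic groups 5 of 9, 6 of 10 and 15 of 24 tested genes fell, beside 3 of 7 G1 and 5 of 10 replication members. In the growth-factor and MYC list 8 of 12 genes rose. Over all probes 10.3% were lower and 9.01% higher.

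Markers of the cell types in the tissue moved beside these genes. Over all probes 9.01% were higher and 10.3% lower, and whether any marker list differs from all probes was not tested. Summed linear levels (signal over the array's 75th percentile) of 11 tested neutrophil markers were 6.49 to 7.36 in the border zone, against 0.681 to 0.919 in sham, and 9 rose. Those of monocytes and macrophages were 77.2 to 80.2 in the border zone, against 36.7 to 45.0 in sham, with 5 of 12 that rose and 2 that fell. The brightest probe in this sum was Lyz2, which rose (1.70 ± 0.18). The 2 that fell were Adgre1 (-0.77 ± 0.19) and Cx3cr1 (-1.34 ± 0.28), the latter well above background on 1 sham array. Csf1r lay below sham on every border-zone array without passing (-0.48 ± 0.13). With normexp 2 of the neutrophil markers and 3 of the macrophage markers rose, beside 1103 of all 17930 probes. Cd163 of resident macrophages was not well above background on any array. Endothelial markers summed to 10.5 to 13.3 in the border zone, against 16.5 to 18.1 in sham (2 of 5 fell), and fibroblast markers to 69.4 to 81.2, against 97.9 to 126 in sham (3 of 9 fell, 2 rose). The endothelial genes that fell were Emcn (-0.95 ± 0.18) and Aplnr (-3.52 ± 0.15). Tek (-0.40 ± 0.12) and Cdh5 (-0.34 ± 0.17) did not pass. Pecam1 lay higher on every border-zone array without passing (0.31 ± 0.11). Of the fibroblast list, Tcf21 (1.84 ± 0.13) and Ddr2 (0.61 ± 0.15) rose. The sums of these 2 lists were thus lower in the border zone, and those of neutrophils and of monocytes and macrophages higher. A sum follows its brightest probes, so it does not give the direction of every marker. In the fibroblast list the genes that fell were Col3a1 (-1.84 ± 0.31), Col1a2 (-1.02 ± 0.21) and Fap (-1.58 ± 0.26). Dcn, also bright, lay higher on every border-zone array without passing (0.40 ± 0.17). The 10 cardiomyocyte markers, all well above background on all arrays, summed to 651 to 753 in the border zone, against 720 to 931 in sham, and none passed. The lymphocyte sum was 3.41 to 4.69 in the border zone, against 3.38 to 3.66 in sham (1 of 6 rose), and the sum for smooth muscle and pericytes was 11.5 to 13.1, against 12.3 to 13.2 in sham (1 of 6 rose, 1 fell). The part of these cell types in the falls was not tested.

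Red cell genes and nervous tissue genes set single arrays apart. Of the red cell and platelet markers 1 of 6 rose, beside 9.01% of all probes. Their sums were 64.7 on M17, 9.40 on M24 and 48.3 on M25 in the border zone, against 71.6 on C4, 54.7 on C5 and 71.5 on C6. M24 was thus lowest in this sum and in Hbb, Hba-a2 and Alas2. It was also the lowest border-zone array in most mitotic genes, which the plot of single arrays shows. The whole list did not share this. Among border-zone arrays the platelet genes Pf4 (0.15, 0.24 and 0.17) and Gp1bb (-1.19, -0.51 and -0.79) were highest on M24. Slc4a1 was lower on C6 (-0.17) than on M24 (0.07). Alas2, an enzyme of haem synthesis in red cell precursors, had 0.58, -4.35 and -0.45 in the border zone, against 1.43, 1.46 and 1.36 in sham. The sum on M17 lay within the sham range, but Alas2 and the globin gene Hba-a2 (-1.69 on M17, against -1.45, -1.56 and -1.44 in sham) lay below every sham array there. Without M24, 12 members fell, beside 3.37% of all probes that were lower in that fit, and all 19 kept a negative difference. The part of blood content in the falls was not tested. Nervous tissue markers summed to 3.57 to 3.94 in the border zone, against 6.07 on C4, 20.9 on C5 and 25.5 on C6. Of 23 with a probe 15 were tested, and 3 of these fell, beside 10.3% of all probes. Among those not tested, Stmn2 had -8.88, -8.99 and -9.07 in the border zone, against -8.65, -0.16 and -0.54 in sham. Nefl likewise had -8.56 on C4, against -0.35 on C5 and -0.02 on C6. Other markers were even over the sham arrays, such as Cnp (1.79, 1.89 and 1.83). The part of nervous tissue RNA in the values was not tested.

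**Figure D4:**
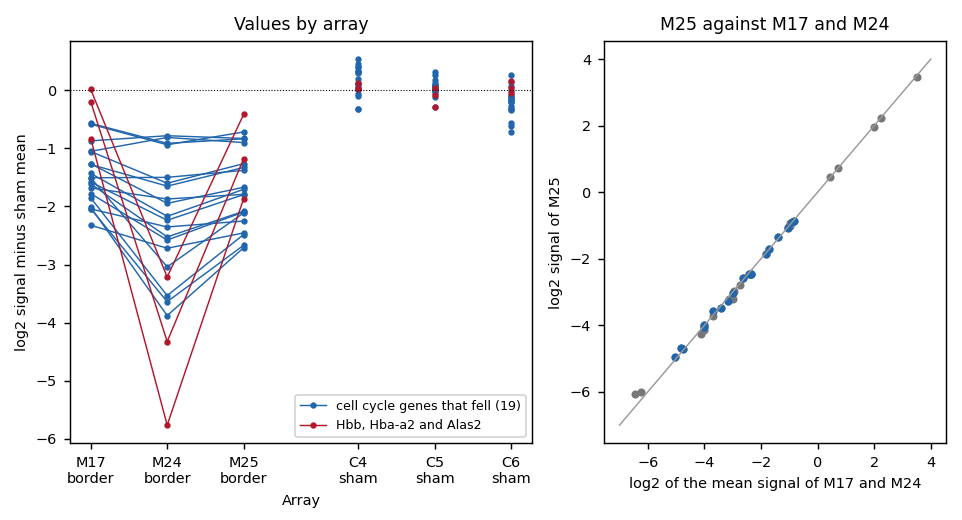
Left, the 19 members that fell (blue) and the red cell genes Hbb, Hba-a2 and Alas2 (red) on each array, as log2 signal minus the sham mean, with lines joining the values of a gene in the border zone. Right, the log2 signal of the 36 tested members on M25 against the log2 of the mean signal of M17 and M24, where blue points fell, grey points did not pass and the line marks equality, with a median distance of 0.0405.

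The promoters printed above can be set against those of the other members. A RefSeq window of 300 bases (250 before to 50 after the start, GRCr8) was found for 26 of the 37 measured members, 13 that fell, 12 that did not pass and Nusap1. CCAAT on either strand was present in 9 of the 13 (69.2%) and in 7 of the 12 (58.3%), beside 37.7% of 27457 windows of all genes. TTTGAA, the usual core of the CHR, was present in 7 of the 13 (53.8%) and in 2 of the 12 (16.7%), beside 18.1% of all windows. The variant TTTAAA, which is its own reverse complement and also resembles a TATA box, was present in 5 of the 13 and 2 of the 12, beside 13.5% of all windows. Of 9 fallers of mitotic entry, spindle and exit with a window, 8 held CCAAT, 7 held at least 2 copies (11.5% of all windows) and 6 held both CCAAT and TTTGAA (7.25% of all windows). Of the 5 members of these roles with a window that did not pass, 2 held CCAAT, 1 held at least 2 copies and 1 held both.

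The E2F words TTTCCCGC, TTTCGCGC, TTTGCCGC and TTTGGCGC, searched on both strands, were found in 3 of the 13 fallers and 3 of the 12 others, beside 2.25% of all windows. Mcm2, Tyms and Cdk1 were the 3 that fell, and Cdt1, Mcm6 and Mcm7 the others. Among windows of the 8995 genes with a tested probe the shares were 38.3% for CCAAT, 13.3% for TTTGAA, 9.85% for TTTAAA and 3.60% for the E2F words. Ccnf, whose level did not pass, held 2 CCAAT and 2 TTTGAA matches, so these letters were not limited to genes that fell. A match describes the letters in a window, and binding was not measured.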

How the data were processed

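Per the file headers, the deposited scanner files hold spot intensity values from Agilent Feature Extraction 11.0.1.1, background-subtracted and not normalized between arrays, with flags of 0 or 1 per spot. The authors' deposited table of log2 values was used as an alternative. Control and outlier spots were dropped, the spots of a probe averaged, log2 taken and the 75th percentile of each array subtracted. Probes passing the background flag on every array of 1 or both groups (17930 of 24614) were tested by limma 3.58.1 (lmFit, eBayes, two-sided) in R 4.3.3, with Benjamini-Hochberg adjustment. The arrays limit the precision. A gene was represented by its brightest probe, named through RefSeq in GRCr8, with values given for up to 6 passing members and 3 others per role, and up to 4 passing genes per other list. Cenpa, Gins3, Orc4, Fzr1, Alas2, Cd163 and the other single cell type markers, and the members past that limit, were named after their values were seen. The members and lists were chosen with earlier results of these data known. Normexp used the median signal, because the files have no mean signal. The planned ranking of genes by correlation with the members is not given, because the groups form separate clusters. Every per-sample column was assigned to a sample. Tables and figures used Python 3.11.15, pandas 2.3.3 and matplotlib 3.10.9. The alternatives are in the closing section.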

Additional observations from a re-analysis of the deposited data

How the results depend on the processing

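The 19 members that fell kept a negative difference in every setting in which they were tested, and no member was called higher in any. Of 36 members, 16 to 22 were lower with scan as a block, quantile or median scaling, normexp, the authors' matrix or a robust prior, beside 5.18% (median scaling) to 12.3% (robust prior) of all probes. Without a filter 18 of 37 were lower (4.2% of all probes), and 20 of 29 with a filter on all 6 arrays (20.2% of all probes). Leaving out 1 array gave 5 (without M25) to 22 (without C4) members lower, and over all probes 286 to 3739 higher and 223 to 3694 lower. With scan as a block and no M25, chosen after seeing the data, 0 members were lower by limma, although 24 had an unadjusted p under 0.05, and 66 probes were higher and 11 lower. That fit in effect compares M17 and M24 with C4 alone, and the cause of the lost calls was not tested. Median scaling gave 1935 probes higher and 929 lower, beside 1615 and 1845, and no filter on dim probes gave 791 and 1035. The scalings moved the median of all probes to 0.16 (median), 0.09 (quantile) and -0.34 (normexp). Members that did not pass and lie near 0 have no settled sign. No paired analysis was possible because the groups share no replicate numbers. Signal over background limits the dim probes of Aurka, Tpx2, Cdc25b and Nusap1.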
